A study of Mus musculus with 24 samples.

Results

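Knockout of MLLT10 (the protein also called AF10) was compared with a non-targeting control in mouse MLL-AF9 leukaemia cells, by RNA sequencing of 9 of the 24 libraries of the series. Members were all libraries labelled MLLT10 guide 1 (3 libraries), MLLT10 guide 2 (3 libraries) and non-targeting (3 libraries), and the mean of both guides was set against the control over 10578 genes. These passed a count filter over all 24 libraries, so some could be kept through another knockout. Col1a1, for example, was tested with 7 counts in the 9 libraries. All 3 groups were the same Cas9-expressing MLL-AF9 line, a cell population driven by the MLL-AF9 fusion oncogene. The groups differed only in the guide RNA. Lentivirus at a multiplicity of 0.3 carried the guides, 2 ug/ml puromycin selected for them over 72 hours from hour 48, and total RNA was taken on day 9. The libraries of 3 other knockouts (MLLT1 and MLLT6 with 2 guides each, DOT1L with 1 guide) entered the same fit, where they helped to set the estimate of spread behind the MLLT10 tests, and were used to test where MLLT10 knockout differed from them. The control rests on a single guide, and the labels give neither clones nor the share of cells that were edited. Nothing in the labels says that replicates came from separate cultures, and p-values therefore measure the spread between these libraries, which may be technical.

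MLLT10 is a chromatin reader that binds the histone methyltransferase DOT1L and helps it to methylate a lysine in the core of the nucleosome along transcribed genes. In MLL-rearranged leukaemia, fusion proteins such as MLL-AF9 hold DOT1L at genes of the stem cell programme, among them the Hoxa cluster, and this programme blocks maturation towards neutrophils and monocytes. Maturing neutrophils fill granules in waves: primary granules with myeloperoxidase and elastase, then specific granules with lactoferrin and cathelicidin, then gelatinase granules, while S100a8 and S100a9 accumulate in the cytosol.

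Total counts per library ran from 2973581 to 6591317 with MLLT10 guide 1, from 2499684 to 7078139 with guide 2 and from 2403044 to 3127008 in the control. On the first principal component of the 9 libraries (28.4% of the variance) replicate 1 was the lowest of each group, at -33.4 with guide 1, -29.9 with guide 2 and -14.4 in the control, and replicate 3 the highest, at 16.4 with guide 1, 3.86 with guide 2 and 38.5 in the control. On the third (14.2%), control replicate 1 lay at -39.6, apart from control replicates 2 and 3 at 1.2 and 5.73 and from all 6 MLLT10 libraries, between -7.31 and 14.8. All 10 markers of myeloid leukaemia cells were expressed, at a summed level of 1420 to 1830 CPM (counts for every 1000000 in the library, TMM-normalised) in MLLT10 libraries and 1100 to 1230 CPM in the control. Mpo made up 668 to 975 CPM of this in MLLT10 libraries and 271 to 384 CPM in the control. Hoxa9 went the other way, at 176 to 246 CPM in MLLT10 libraries and 271 to 365 CPM in the control. Csf1r was at 1.66 to 6.64 CPM in MLLT10 libraries and 0.626 to 2.47 CPM in the control. Of 14 markers of T and NK cells, 8 had no count in any of the 9 libraries (Cd3e, Cd247, Cd4, Cd8a, Trbc1, Trbc2, Gzmb and Ncr1). All 14 summed to 223 to 357 CPM in MLLT10 libraries and 138 to 198 CPM in the control, of which a single gene, Nkg7, made up 211 to 334 CPM in MLLT10 libraries and 129 to 186 CPM in the control. Of 10 markers of B cells, 6 had no count, and all 10 summed to 89.8 to 146 CPM in MLLT10 libraries and 73.8 to 134 CPM in the control, nearly all of it Ighm (83.9 to 141 CPM in MLLT10 libraries and 69.2 to 131 CPM in the control). The 12 non-haematopoietic markers summed to at most 1.56 CPM in MLLT10 libraries and 2.19 CPM in the control. The part of other cells in the results was not tested.

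Mllt10 mRNA was lower in all 6 MLLT10 libraries than in any control library, but the difference did not pass the test over all genes. It stood at 9.06, 7.98 and 9.40 CPM with guide 1, 10.6, 11.1 and 12.1 CPM with guide 2, and 16.9, 14.7 and 19.1 CPM in the control, a log2 fold change of -0.76 ± 0.21 (SE; unadjusted p = 0.00155, edgeR adjusted p = 0.139). Guide RNAs make small insertions and deletions that need not lower an mRNA, so this level is a weak check of the labels and says nothing of the protein. None of the other 4 genes of the DOT1L complex was called: the log2 fold changes were 0.06 ± 0.11 for Dot1l, -0.24 ± 0.19 for Mllt6, 0.27 ± 0.22 for Mllt1 and 0.22 ± 0.28 for Mllt3. Of 23 tested genes that start within 5 Mb of Mllt10 on chromosome 2, none was called by edgeR, 2 had an unadjusted p under 0.05, and the median log2 fold change was -0.16. Over all tested genes, 0.473% were called, 9.58% had an unadjusted p under 0.05, and the median was 0.0023. Nothing particular to these neighbours can be read from such counts.

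With MLLT10 knockout 25 genes rose and 25 fell, where a call is a p under 0.05 in edgeR's quasi-likelihood test after Benjamini-Hochberg adjustment. Each direction held 0.236% of the genes tested, and both together 0.473%. The rises included the specific granule genes Ltf, Fcnb and Camp, the late neutrophil genes S100a8 and S100a9, the primary granule gene Mpo, and also Wfdc21, Cftr, Stfa3, Mgl2 and Prom1. The falls included Lpxn, Tnfrsf9, Pan3, Wnk1 and the Hox cofactor Pbx3. A fold of 2 or more was seen in 22 of the rises (0.208% of genes tested) and in 10 of the falls (0.0945%). At an unadjusted p under 0.05 there were 1013 genes (9.58%), 459 of them higher (4.34%) and 554 lower (5.24%). In all 50 called genes the 6 MLLT10 libraries lay wholly on 1 side of the 3 control libraries, as they did in 2.41% of all tested genes on the higher side and 2.93% on the lower side. In bulk RNA, a change in the share of maturing cells and a change in RNA per cell cannot be told apart.

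The number of calls depended on the control libraries and on the libraries in the fit. Without control replicate 2 there were 8 rises and 7 falls, without control replicate 3 there were 9 and 6, and without control replicate 1 there were 28 and 28. All 50 genes kept their direction throughout, and 13 were called under every alternative and with every library left out. These included Wfdc21, Mgl2, S100a8, S100a9, Mpo, Ccl9, C3 and I830127L07Rik among the rises, and Lpxn, C2cd4b, Pan3 and Wnk1 among the falls. With only the 9 libraries of the comparison in the fit, there were 17 rises and 11 falls. Of the 50 genes, 26 lost their call there, at edgeR adjusted p of 0.0543 to 0.192. These were Prom1, Ube4a, Gas7, Mtus1, F13a1, Hp, Stfa3, Ltf, Cftr and Gm26917 among the rises. Among the falls they were Abcb4 (0.0558), Parm1, Tnfrsf18, Nipbl, Csnk1g3, Zfpm1, Zkscan17, Adgre1, Atp13a2, Gramd1b, Pcnx (0.0543), Pbx3, Plekhb2 (0.192), Chd9, Naa30 and Itm2b.

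Both guides gave much the same picture. Guide 1 alone called 12 rises (0.113% of genes) and 6 falls (0.0567%), 18 genes or 0.17% in all, with 6.62% of genes at an unadjusted p under 0.05. Guide 2 alone called 22 rises (0.208%) and 10 falls (0.0945%), 32 genes or 0.303% in all, with 9.43% at an unadjusted p under 0.05. The replicate numbers of guide 1 and the control mark libraries that deviate together, which the main fit did not use. With the number as a block for all libraries, the count for guide 1 was 30 in place of 18. For guide 2 it was 69 in place of 32. Without control replicate 3 the count was 5 for either guide, and without control replicate 1 it was 50 for guide 2. Set directly against each other, the guides differed in no gene by edgeR, with 182 genes (1.72%) at an unadjusted p under 0.05 and none called by DESeq2. With no filter on low counts 16 genes were called, and with the replicate block 0. Same-numbered libraries of both guides also deviated together (correlations 0.529, 0.221 and 0.333), which the main fit ignored. The lack of calls there does not show that the guides were alike. All 50 called genes had the same direction with both guides, none had an unadjusted p under 0.05 between them, and their widest gap was 0.77 on the log2 scale, in Cpa3. The same control libraries enter both guides' fold changes, so this likeness is partly shared by construction. The 50 genes were also chosen by the mean of both guides, which favours genes on which the guides agree.

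**Figure D1:**
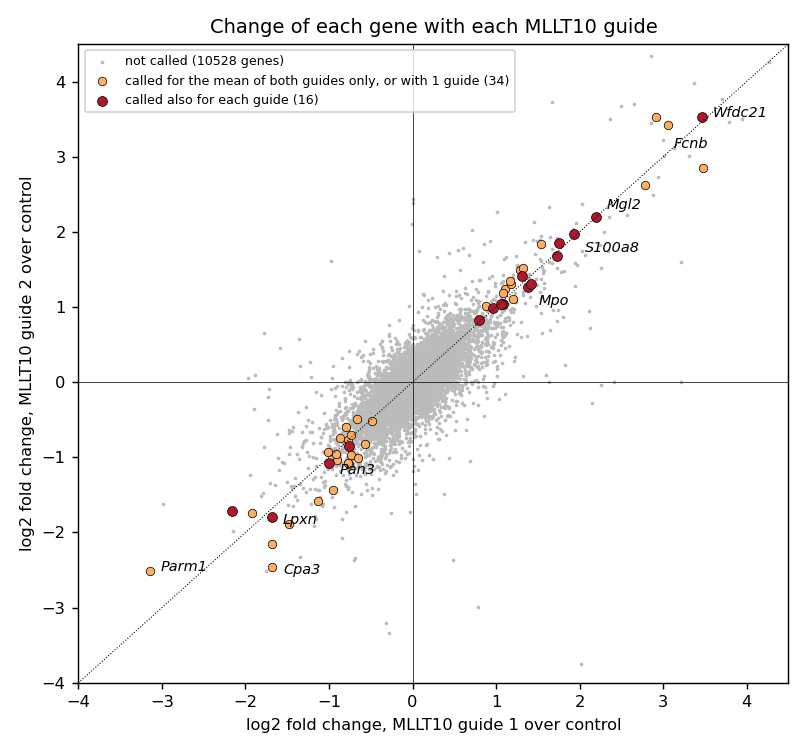
Log2 fold change over the control with MLLT10 guide 1 (horizontal) and guide 2 (vertical) for each tested gene; both share the 3 control libraries, and 4 genes lie outside the axes. Red points are the 16 genes called for each guide and for the mean of both, orange points the other 34 called for the mean; the dotted line marks equal change.

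A stricter group of 16 genes (0.151% of those tested) was called with guide 1, with guide 2 and for their mean, 12 higher (0.113%) and 4 lower (0.0378%). The 12 rises were Wfdc21, Mgl2, S100a8, S100a9, Prom1, Ube4a, Mpo, Ccl9, Gas7, C3, Mtus1 and the unnamed transcript I830127L07Rik. Lpxn, Pan3 and Wnk1 were among the 4 falls. Of the other 34 called genes, 16 passed with 1 of the guides and 18 with neither guide alone.

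**Figure D2:**
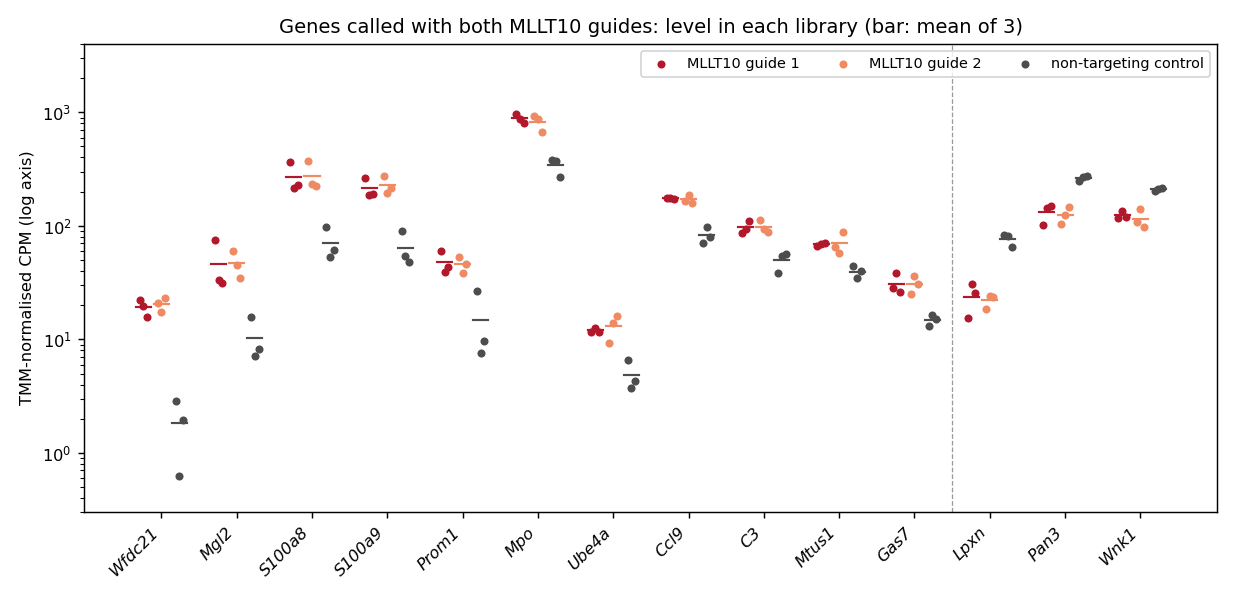
TMM-normalised CPM (log axis) of 14 named genes called with both guides, in each of the 9 libraries; points are libraries and bars the mean of 3. In each gene left of the dashed line the 6 MLLT10 points lie above the 3 control points, and in each gene right of it below them.

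S100a8 and S100a9 encode the subunits of calprotectin, a calcium-binding and metal-binding protein of the neutrophil cytosol, and their genes lie close together on chromosome 3. S100a8 (ENSMUSG00000056054, GRCm38 chr3:90668978-90670035, plus strand) had levels of 364, 216 and 229 CPM with guide 1 and 370, 235 and 223 CPM with guide 2, against 97.7, 53.2 and 61.4 CPM in the control. S100a9 (ENSMUSG00000056071, chr3:90692632-90695721, minus strand) had levels of 266, 188 and 192 CPM with guide 1 and 277, 195 and 217 CPM with guide 2, against 89.4, 54.1 and 47.8 CPM in the control. Replicate 1 was the highest library of all 3 groups for both genes, and the lowest MLLT10 library was still more than 2 times as high as the highest control library. The rises were 1.95 ± 0.30 for S100a8 (log2, SE; edgeR adjusted p = 0.00151) and 1.81 ± 0.25 for S100a9 (edgeR adjusted p = 0.000465). Together the pair took 0.0411% to 0.0646% of all counts in MLLT10 libraries and 0.011% to 0.0187% in control libraries.

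Mpo, which encodes myeloperoxidase, the oxidant-producing enzyme of primary granules, rose to 975, 876 and 810 CPM with guide 1 and 927, 865 and 668 CPM with guide 2, against 384, 369 and 271 CPM in the control (ENSMUSG00000009350, chr11:87793581-87804413). The groups were well apart, at a log2 fold change of 1.32 ± 0.17 (SE; edgeR adjusted p = 0.000173). The call held with each library left out, the edgeR adjusted p being 0.00222 without control replicate 2 and 0.00644 without control replicate 3.

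The promoters of these 3 genes, which rose together, and of Lpxn, the fall with the smallest adjusted p, are shown from 250 bases before to 50 bases after the start given by RefSeq (GRCm38.p6), 5′ to 3′ on the gene's strand. S100a8 is chr3:90668821-90669120 (plus), S100a9 is chr3:90695672-90695971 (minus), Mpo is chr11:87793534-87793833 (plus) and Lpxn is chr19:12795943-12796242 (plus). Capitals mark matches, on either strand, to a C/EBP core (TTGCNNAA), a PU.1 core (GAGGAAGT) or a TATA box (TATAAA).
S100a8: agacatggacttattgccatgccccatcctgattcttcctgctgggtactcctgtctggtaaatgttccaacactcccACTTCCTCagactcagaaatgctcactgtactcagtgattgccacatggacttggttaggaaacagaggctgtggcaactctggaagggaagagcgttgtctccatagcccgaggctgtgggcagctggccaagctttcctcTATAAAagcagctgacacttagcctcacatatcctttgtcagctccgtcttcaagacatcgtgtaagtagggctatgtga
S100a9: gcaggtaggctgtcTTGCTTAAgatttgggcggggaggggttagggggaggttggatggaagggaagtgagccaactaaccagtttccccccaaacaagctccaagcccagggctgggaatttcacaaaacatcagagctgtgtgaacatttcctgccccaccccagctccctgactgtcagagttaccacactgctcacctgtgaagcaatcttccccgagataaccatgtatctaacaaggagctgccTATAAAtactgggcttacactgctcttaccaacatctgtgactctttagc
Mpo: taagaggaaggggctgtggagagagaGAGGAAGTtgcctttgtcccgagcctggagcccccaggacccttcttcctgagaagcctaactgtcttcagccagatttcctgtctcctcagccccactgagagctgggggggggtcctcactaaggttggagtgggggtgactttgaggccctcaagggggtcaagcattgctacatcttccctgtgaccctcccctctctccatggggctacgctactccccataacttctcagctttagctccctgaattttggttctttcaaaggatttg
Lpxn: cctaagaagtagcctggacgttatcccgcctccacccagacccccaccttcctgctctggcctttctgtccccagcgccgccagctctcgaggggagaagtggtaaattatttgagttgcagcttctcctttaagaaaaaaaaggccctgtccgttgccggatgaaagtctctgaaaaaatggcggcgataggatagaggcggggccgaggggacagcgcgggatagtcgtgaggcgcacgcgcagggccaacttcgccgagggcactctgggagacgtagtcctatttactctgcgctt
C/EBP and PU.1 are transcription factors of granulocytes. S100a8 held a PU.1 match from -172 to -165 and a TATA match from -30 to -25. S100a9 held a C/EBP match from -236 to -229 and a TATA match that begins at the RefSeq start itself. Mpo held a PU.1 match from -224 to -217, and the Lpxn window held none of the 3. Positions count from the RefSeq start. For S100a8 and Mpo that start lies downstream of the GENCODE gene start printed above, which falls inside the window. Over all 32851 promoters of the table, 10.8% held the C/EBP core, 3.2% the PU.1 core and 13.6% the TATA box, and among the 10273 promoters of tested genes the shares were 8.53%, 3.42% and 6.7%. RefSeq gave 18 promoters for 16 of the genes that rose and 22 promoters for 18 of those that fell. The C/EBP core was in 4 of the 18 (C3, Fcnb, Ltf and S100a9) and in 0 of the 22. The PU.1 core was likewise in 4 of the 18 (F13a1, Mpo, Prom1 and S100a8) and in 0 of the 22. These matches are letters in a window and were not tested as binding sites.

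Wfdc21, which encodes a small secreted protein of the whey acidic protein family, made the largest rise among genes called with both guides. It was at 22.2, 19.7 and 15.6 CPM with guide 1 and 21.1, 17.3 and 23 CPM with guide 2, against 2.89, 0.626 and 1.94 CPM in the control, where the 3 libraries held 14 counts between them (650 in the MLLT10 libraries). Every MLLT10 library was far above the highest control library. Its log2 fold change was 3.50 ± 0.37 (SE), with an edgeR adjusted p of 2.08e-05, the smallest of the comparison.

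Mgl2, a galactose-binding C-type lectin of macrophages and dendritic cells, was at 74.4, 33.2 and 31.4 CPM with guide 1 and 59.6, 45.4 and 34.8 CPM with guide 2, against 15.7, 7.19 and 8.17 CPM in the control. Its log2 fold change was 2.20 ± 0.34 (SE; edgeR adjusted p = 0.00151), and replicate 1 again stood highest in each group. Ccl9, a chemokine of mouse myeloid cells, was at 177, 177 and 171 CPM with guide 1 and 167, 186 and 160 CPM with guide 2, against 71.3, 97.3 and 80.1 CPM in the control (1.06 ± 0.17 on the log2 scale, edgeR adjusted p = 0.00178). C3, the central component of complement, averaged 97.3 ± 10.8 CPM in MLLT10 libraries (SD, n = 6) and 49.5 ± 9.39 CPM in control libraries (SD, n = 3), a log2 rise of 0.97 ± 0.16 (SE). All 3 were called with every library left out.

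Prom1, Ube4a, Gas7 and Mtus1, which also rose with each guide, all lost their call without control replicate 2. Prom1 (CD133), a membrane protein used as a stem and progenitor marker, was at 60.6, 39.3 and 43.1 CPM with guide 1 and 53.2, 38.3 and 46.5 CPM with guide 2, against 26.8, 7.51 and 9.72 CPM in the control. Its control replicate 1 was well above the other two, and its edgeR adjusted p of 0.00687 became 0.125 without control replicate 2 and 0.104 without control replicate 3. Ube4a, a U-box ubiquitin ligase, averaged 12.5 ± 2.28 CPM in MLLT10 libraries and 4.88 ± 1.51 CPM in control libraries (SD, n = 6 and 3), with an edgeR adjusted p of 0.00721 that became 0.135 and 0.0949 without the same replicates. Gas7, an actin-binding protein of the F-BAR family, averaged 30.8 ± 5.4 CPM in MLLT10 libraries and 14.9 ± 1.56 CPM in control libraries and lost its call (edgeR adjusted p = 0.0119) without any single control library, at 0.0596, 0.0907 and 0.0949. Mtus1, which encodes microtubule-associated tumour suppressor proteins, averaged 69.4 ± 10.5 CPM in MLLT10 libraries and 39.5 ± 5.06 CPM in control libraries and lost its call (edgeR adjusted p = 0.00534) only without control replicate 2, at 0.105.

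A further 12 named genes rose for the mean of both guides, but not with each guide. Among these were the specific granule proteins lactoferrin (Ltf), cathelicidin (Camp) and ficolin B (Fcnb), and haptoglobin (Hp), which is also stored in granules. Fcnb was at 8.30, 4.69 and 9.72 CPM with guide 1 and 10.0, 7.71 and 11.3 CPM with guide 2, against 0.824, 0.626 and 1.17 CPM in the control, where it had 7 counts in all. Ltf was at 9.66, 11 and 3.24 CPM with guide 1 and 8.06, 2.14 and 6.64 CPM with guide 2, against 0.824, 0.938 and 0.389 CPM in the control, or 233 counts in MLLT10 libraries and 6 in the control. Camp was at 170, 123 and 131 CPM with guide 1 and 187, 125 and 151 CPM with guide 2, against 72.1, 48.2 and 67.7 CPM in the control. No MLLT10 library overlapped the control in any of these. The log2 fold changes were 3.24 ± 0.60 for Fcnb, 3.16 ± 0.72 for Ltf and 1.24 ± 0.24 for Camp (SE), with edgeR adjusted p of 0.00911, 0.0455 and 0.011. Hp averaged 42.4 ± 7.73 CPM in MLLT10 libraries and 19.3 ± 4.84 CPM in control libraries, a log2 rise of 1.13 ± 0.23. Without control replicate 2 the edgeR adjusted p was 0.136 for Fcnb, 0.227 for Ltf, 0.144 for Camp and 0.125 for Hp, and without control replicate 3 it was 0.0693, 0.316, 0.0684 and 0.228. Ltf also lost its call without control replicate 1 (0.0929) and without replicate 1 or 2 of guide 1 or replicate 1 or 3 of guide 2 (0.0735 to 0.122).

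Another 6 of these 12 genes were F13a1, Ifitm3, Lbp, Trem3, Igsf6 and Ctse. F13a1, the A chain of coagulation factor XIII and a monocyte gene, was at 42.6, 83.7 and 79.7 CPM with guide 1 and 57.9, 84.7 and 91.0 CPM with guide 2, against 28, 25.6 and 38.1 CPM in the control. Ifitm3, a membrane protein that restricts virus entry, averaged 349 ± 88.7 CPM in MLLT10 libraries and 108 ± 41.1 CPM in control libraries. Lbp, which binds bacterial lipopolysaccharide, averaged 117 ± 8.58 CPM in MLLT10 libraries and 60.6 ± 8.24 CPM in control libraries. Log2 fold changes were 1.25 ± 0.26 for F13a1, 1.69 ± 0.30 for Ifitm3 and 0.95 ± 0.18 for Lbp (SE). Trem3, an activating receptor of the TREM family, Igsf6, a membrane protein of the immunoglobulin superfamily, and Ctse, the aspartic protease cathepsin E, had log2 fold changes of 1.39 ± 0.27, 1.16 ± 0.25 and 1.17 ± 0.25 (SE). All 6 lost their call without control replicate 2 and without control replicate 3, at edgeR adjusted p of 0.103 to 0.206 and of 0.0575 to 0.329. F13a1, Ctse and Igsf6 also lost it without control replicate 1 (0.0756, 0.0671 and 0.0543) and without 2, 3 and 4 of the MLLT10 libraries, at 0.0508 to 0.0894.

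Stfa3 and Cftr were close to the limit of detection in the control. Stfa3, a stefin A protease inhibitor, was at 6.49, 4.07 and 4.86 CPM with guide 1 and 6.93, 3.86 and 1.95 CPM with guide 2, against 0.412, 1.25 and 0.389 CPM in the control (165 counts in MLLT10 libraries and 6 in the control). It belongs to a family of near-identical copies, so its reads may be shared with the other members. Cftr, a chloride channel, had 119 counts in the MLLT10 libraries and 3 in the control, a ratio of 9.93 in CPM with an exact 95% interval of 3.32 to 48.9 that covers counting error only. Both lost their calls (edgeR adjusted p = 0.0455 and 0.0474) in 7 of the 9 fits that leave out a library, among them each fit without a control library (Stfa3 0.116 to 0.329, Cftr 0.0543 to 0.334). The 2 MLLT10 libraries without which the call held were replicate 2 of guide 1 and replicate 3 of guide 2 for Stfa3, and replicate 2 of either guide for Cftr.

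Among the falls, Lpxn had the smallest adjusted p. It encodes leupaxin, an adaptor of the paxillin family in integrin signalling of leukocytes (ENSMUSG00000024696, chr19:12796193-12833807). Lpxn was at 15.4, 30.5 and 25.6 CPM with guide 1 and 18.4, 24.3 and 23.4 CPM with guide 2, against 82.8, 81.0 and 64.9 CPM in the control. The highest MLLT10 library was less than 0.5 times the lowest control library. Lpxn fell by 1.74 ± 0.20 on the log2 scale (SE; edgeR adjusted p = 7.09e-05), by 1.68 with guide 1 and 1.80 with guide 2. Of 22 tested genes of paxillin and focal adhesion signalling, Lpxn was the only one called for the mean of both guides, and the list median was 0.008 (log2).

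Pan3, a subunit of the PAN2-PAN3 complex that trims poly(A) tails, was at 101, 144 and 151 CPM with guide 1 and 104, 125 and 148 CPM with guide 2, against 248, 267 and 276 CPM in the control. That was a fall of 1.04 ± 0.16 (log2, SE; edgeR adjusted p = 0.00178). Wnk1, a kinase that senses chloride and regulates ion cotransporters, was at 118, 135 and 119 CPM with guide 1 and 107, 142 and 98.0 CPM with guide 2, against 202, 210 and 216 CPM in the control, where the libraries lay close together. Wnk1 fell by 0.80 ± 0.12 (log2, SE; edgeR adjusted p = 0.00135). The groups did not overlap in any of these, and the calls held with every library left out.

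Of 19 tested genes of deadenylase complexes, Pan3 was the only one called for the mean of both guides, with a list median of -0.11. Cnot6l, a catalytic deadenylase of the CCR4-NOT complex, was at 80.6, 117 and 108 CPM with guide 1 and 80.6, 88.8 and 72.3 CPM with guide 2, against 119, 139 and 126 CPM in the control. It was called with guide 2 (edgeR adjusted p = 0.0286) and not for the mean (0.0526), but it was called for the mean in DESeq2 (adjusted p = 0.00765), in the fit blocked by replicate number (edgeR adjusted p = 0.0251), with DESeq2 size factors, without replicate 2 of guide 1 and without the 2 libraries of other knockouts that stood apart (0.0466). Of 10 tested genes of the WNK pathway Wnk1 was the one called, and of 11 U-box ligases and their partners Ube4a was, though not without control replicate 2 or 3 or with the compared groups alone. In lists of this size 1 call sets none of them apart, where 0.473% of all genes were called.

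C2cd4b and Abcb4 also fell. C2cd4b, which encodes a nuclear protein with a calcium-dependent lipid-binding domain, was at 15.6, 27.5 and 20.7 CPM with guide 1 and 14.6, 22.8 and 9.37 CPM with guide 2, against 61.0, 63.8 and 53.3 CPM in the control (-1.68 ± 0.27 log2, SE; edgeR adjusted p = 0.00191). Abcb4, a phospholipid transporter, averaged 4.17 ± 1.88 CPM in MLLT10 libraries and 15.1 ± 1.58 CPM in control libraries (-1.83 ± 0.33 log2, SE; edgeR adjusted p = 0.00687). Both kept their call with every library left out.

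A pair of costimulatory receptors of the TNF receptor family fell as well. Tnfrsf9 was at 140, 509 and 464 CPM with guide 1 and 281, 246 and 273 CPM with guide 2, against 988, 1650 and 927 CPM in the control. Tnfrsf18 was at 4.53, 13.5 and 12.3 CPM with guide 1 and 4.81, 7 and 10.9 CPM with guide 2, against 17.7, 27.8 and 19.4 CPM in the control. In both, replicate 1 of guide 1 was the lowest library. Their log2 fold changes were -1.92 ± 0.43 and -1.36 ± 0.30 (SE; edgeR adjusted p = 0.0449 for each), and without control replicate 2 the adjusted p was 0.295 and 0.319. Tnfrsf9 kept its call only without replicate 2 of guide 1 and otherwise stood at 0.0543 to 0.295, and DESeq2 gave it an adjusted p of 0.0787. Tnfrsf18 also lost its call without control replicate 3 and 3 of the MLLT10 libraries, at 0.0807 to 0.142.

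Cpa3, Zfpm1 and Adgre1 are genes known from other or later blood cells. Cpa3, a protease of mast cells, was at 2.87, 4.07 and 3.89 CPM with guide 1 and 2.12, 2.57 and 1.17 CPM with guide 2, against 16.1, 7.51 and 11.3 CPM in the control (-2.07 ± 0.40 log2, SE; edgeR adjusted p = 0.0146, and 0.08 without control replicate 1 and 0.0864 without control replicate 3). Zfpm1, a cofactor of GATA factors in megakaryocyte and red cell development, averaged 15.6 ± 2.95 CPM in MLLT10 libraries and 29.7 ± 2.21 CPM in control libraries. Adgre1, the macrophage surface receptor known as the F4/80 antigen, averaged 122 ± 17.5 CPM in MLLT10 libraries and 219 ± 53.4 CPM in control libraries. Of 13 markers of mast cells and basophils, 6 had no count in any library, the mast cell proteases Mcpt4, Tpsb2 and Tpsab1 among them. All 13 summed to 3750 to 4690 CPM in MLLT10 libraries and 4770 to 6280 CPM in control libraries. Srgn, which other myeloid cells also express, made up 3490 to 4400 CPM of this in MLLT10 libraries and 4360 to 5930 CPM in control libraries, and the part of such cells in the fall of Cpa3 was not tested. Zfpm1 (edgeR adjusted p = 0.0408) and Adgre1 (0.00721) lost their calls without control replicate 2 (0.206 and 0.115) and without control replicate 3 (0.243 and 0.161). Zfpm1 kept its call only without replicate 2 of guide 2 and otherwise stood at 0.0512 or more.

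Of 27 tested targets of MLL fusions Pbx3 was the one called, against 0.236% of all genes called lower. The count was 4 with no filter on low counts, 3 in DESeq2, 2 with the replicate block, 2 without the 2 libraries that stood apart, and 0 with the compared groups alone, on thinned counts or with any 1 of 6 libraries left out. Pbx3 encodes a partner of HOX proteins on DNA and was at 153, 250 and 209 CPM with guide 1 and 171, 202 and 251 CPM with guide 2, against 289, 338 and 389 CPM in the control. Its highest MLLT10 library was below its lowest control library, at a log2 fold change of -0.72 ± 0.16 (SE; edgeR adjusted p = 0.0464), and without control replicate 2 or 3 the adjusted p was 0.183 and 0.377. It was also lost without replicate 1 or 3 of guide 1 and replicate 1 or 2 of guide 2, at 0.0698 to 0.126. Of the 27 fusion targets, 23 had a negative log2 fold change, with a list median of -0.33 against 0.0023 for all tested genes. All 6 tested Hoxa genes had a negative value, with a median of -0.49. None was called by edgeR without a block, and 4 had an unadjusted p under 0.05. Hoxa9, the member most closely tied to this leukaemia, was at 177, 190 and 236 CPM with guide 1 and 176, 197 and 246 CPM with guide 2, against 271, 272 and 365 CPM in the control (-0.58 ± 0.15 log2, SE; edgeR adjusted p = 0.0975). It was called in the blocked fit (edgeR adjusted p = 0.0257) and in DESeq2 (adjusted p = 0.0273), and over all alternatives and left-out libraries its adjusted p ran from 0.0257 to 0.668. Jmjd1c, a demethylase-family protein, averaged 42.5 ± 5.66 CPM in MLLT10 libraries and 67.4 ± 6.48 CPM in control libraries (edgeR adjusted p = 0.0841), and Eya1, a transcriptional coactivator, averaged 72.4 ± 6.97 CPM in MLLT10 libraries and 117 ± 3.24 CPM in control libraries (edgeR adjusted p = 0.188). The groups did not overlap in either. Meis1, which acts with Hoxa9, had a log2 fold change of -0.08 ± 0.17.

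The remaining 13 called falls each lost their call in fits that left out a library. Parm1, a mucin-like membrane protein, had the largest fitted fall, -2.83 ± 0.62 (log2, SE; edgeR adjusted p = 0.0408), from 28 counts in the MLLT10 libraries and 48 in the shallower control libraries, and it lost its call without any single control library (0.112 to 0.128). Nipbl, the cohesin loader, was at 22.5 ± 7.98 CPM in MLLT10 libraries and 50.6 ± 8.79 CPM in control libraries (-1.19 ± 0.27). Itm2b, a membrane protein, was at 1080, 1090 and 1270 CPM with guide 1 and 1090, 1110 and 1170 CPM with guide 2, against 1410, 1650 and 1770 CPM in the control, the smallest called fall at -0.50 ± 0.10 (edgeR adjusted p = 0.0226). Pcdh7, Ctla2a, Csnk1g3, Zkscan17, Atp13a2, Gramd1b, Pcnx, Plekhb2, Chd9 and Naa30 fell by 0.57 to 0.97 on the log2 scale. Ctla2a, an inhibitor of cysteine proteases, has a close copy with which reads may be shared. Of these 13 genes, each lost its call without control replicate 2 and without control replicate 3, at edgeR adjusted p of 0.0575 to 0.364, and Pcdh7 and Chd9 lost it with any library of the comparison left out (0.0583 to 0.167). The others except Gramd1b and Pcnx also lost it without 4 to 6 further libraries, at 0.0508 to 0.129.

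With 0.473% of all genes called, most gene lists held no called member. Of 34 lists, with 404 tested genes between them, specific granule proteins had 3 of 13 called higher and 0 lower (Fcnb, Camp and Ltf), against 0.236% of all genes. All 13 had a positive log2 fold change, with a median of 1.24. The count filter ran over all 24 libraries, and 12 of the 13 were called higher in DOT1L knockout than in the control (list median 7.12). Members scarce in the control could be kept through that group, which leaves them little room for a negative value. The list was also chosen with earlier results known, so these counts are not independent of that choice. Lcn2, which encodes the iron-scavenging lipocalin of specific granules, was at 87.1, 37.1 and 48.3 CPM with guide 1 and 80.5, 35.8 and 32.4 CPM with guide 2, against 25.1, 27.2 and 23.3 CPM in the control (1.09 ± 0.28 log2, SE; edgeR adjusted p = 0.0913). The count of called specific granule genes was 0 without control replicate 2 and 0 without control replicate 3, against 9 with no filter on low counts and 5 in DESeq2. Without control replicate 1, without replicate 1 of guide 1, without replicate 1 or 3 of guide 2 and with the compared groups alone it was 2.

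Late neutrophil genes had 2 of 14 called higher (S100a8 and S100a9) and a median of 0.70, with 11 values positive and 3 negative. All 14 were called higher in DOT1L knockout than in the control, so the same limit holds for this list. Mmp8, a collagenase of neutrophils, averaged 5.50 ± 1.15 CPM in MLLT10 libraries and 2.06 ± 0.123 CPM in control libraries (edgeR adjusted p = 0.167), and Mmp9, the gelatinase itself, averaged 12.2 ± 2.64 CPM in MLLT10 libraries and 5.6 ± 2.44 CPM in control libraries (edgeR adjusted p = 0.343). Primary granule genes had 1 of 10 called higher (Mpo) and a median of 0.10, with 5 values positive and 5 negative. The count was 2 with no filter, in DESeq2 and with the replicate block. It was also 2 without replicate 1 of guide 1 and without the 2 libraries that stood apart. Elane, neutrophil elastase, was at 1340, 2170 and 1680 CPM with guide 1 and 1540, 1490 and 1240 CPM with guide 2, against 891, 1140 and 801 CPM in the control (0.73 ± 0.18 log2, SE; edgeR adjusted p = 0.0753). All 5 tested chemokines had a positive value, with a median of 1.06 and Ccl9 called (3 called with no filter and in DESeq2). Ccl6 averaged 11.1 ± 4.39 CPM in MLLT10 libraries and 3.89 ± 0.178 CPM in control libraries (edgeR adjusted p = 0.154). Monocyte and macrophage genes had 1 of 13 higher (F13a1) and 1 lower (Adgre1), and both counts were 0 without control replicate 2 or 3. Protease inhibitors of myeloid cells had 2 of 13 higher (Wfdc21 and Stfa3) and none lower, with a median of 0.12. That count was 4 with no filter and 1 with the compared groups alone or with any 1 of 7 libraries left out. Slpi, an inhibitor of neutrophil elastase, averaged 888 ± 140 CPM in MLLT10 libraries and 1500 ± 322 CPM in control libraries (-0.76 ± 0.18 log2, SE; edgeR adjusted p = 0.0568, and 0.0143 with the replicate block and 0.0118 in DESeq2). Myeloid C-type lectins had 1 of 8 higher (Mgl2) and a median of 0.25 (2 higher with no filter).

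None of 16 tested myeloid transcription factors was called, beside 0.473% of all genes, and nothing particular to the list can be read from that. Their median was 0.22: Cebpa had 0.43 ± 0.20, Runx1 0.40 ± 0.22, Cebpd 0.37 ± 0.22, Spi1 0.21 ± 0.20 and Irf1 -0.47 ± 0.27 (log2, SE), and only Cebpa had an unadjusted p under 0.05. Stem and progenitor genes had Prom1 called higher and none lower among 20, with a median of -0.15, and the count was 0 without control replicate 2 or 3. Muc13, a membrane mucin, averaged 405 ± 49 CPM in MLLT10 libraries and 572 ± 51.2 CPM in control libraries (edgeR adjusted p = 0.22). Class II presentation genes had none called among 7, with a median of -0.52, although Cd74, the invariant chain, averaged 7.57 ± 1.43 CPM in MLLT10 libraries and 2.63 ± 1.44 CPM in control libraries (edgeR adjusted p = 0.138). Growth and stress lists had none called, where 0.473% of all genes were: DNA replication (35 tested, median 0.17), mitosis (28, 0.05), ribosomal proteins (32, -0.13), p53 targets (17, -0.05) and interferon-stimulated genes (10, 0.005). Positive values numbered 31, 17, 10, 8 and 5 in the same order. Cholesterol synthesis genes had 17 of 20 positive and MLL and menin complex genes 11 of 12, with none called. Lists with values mostly on 1 side were therefore not confined to granule genes and fusion targets. In DESeq2 and without control replicate 1 there was 1 called DNA replication gene, and in DESeq2 and with no filter there was 1 called p53 target. Orc1, a subunit of the origin recognition complex, averaged 18 ± 3.1 CPM in MLLT10 libraries and 9.95 ± 0.91 CPM in control libraries, with an edgeR adjusted p of 0.101.

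**Figure D3:**
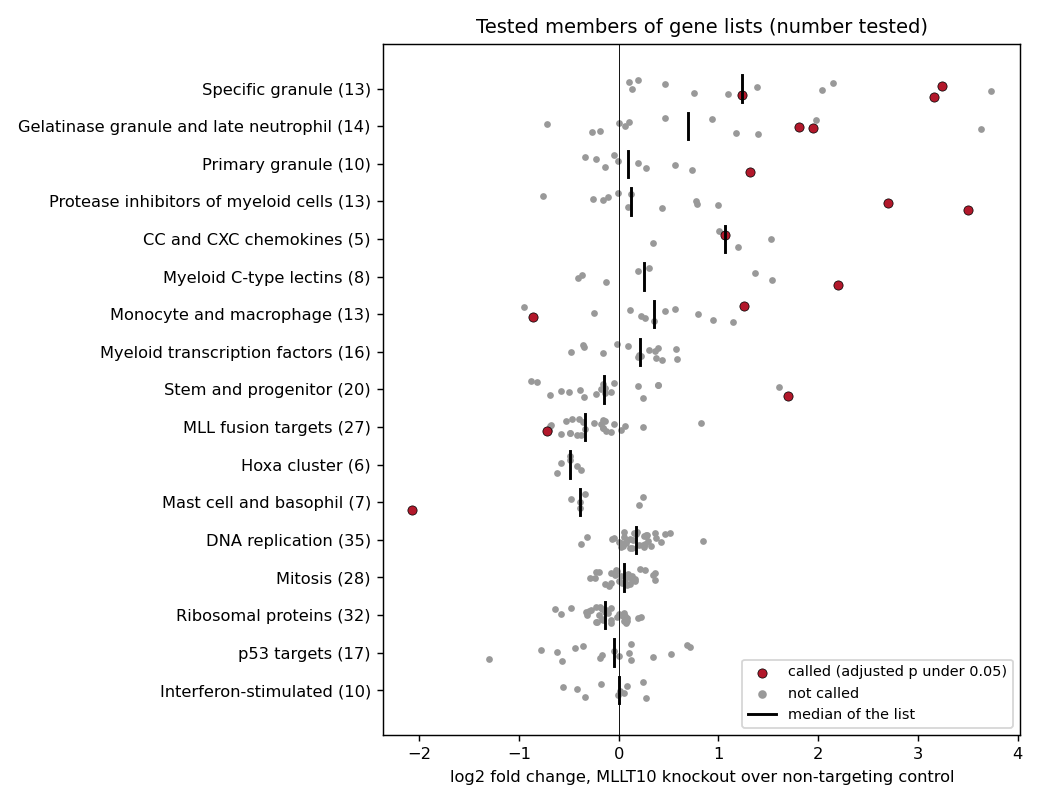
Log2 fold change of MLLT10 knockout over control for each tested member of 17 gene lists, with the number tested in brackets; red points are called, grey points are not, and black bars are list medians. Specific granule genes lie wholly right of 0 with a median of 1.24, and Hoxa genes wholly left of it with a median of -0.49. Genes could pass the count filter through other knockouts, and the lists were chosen with earlier results known.

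Most genes that rose in the MLLT10 knockout were higher still in the DOT1L knockout, and many that fell were lower still. Tested directly between the knockouts, a contrast that uses no control library, 2486 genes (23.5%) differed. Of the 25 genes that rose with MLLT10 knockout, 21 were lower in it than in DOT1L knockout and 1 higher (Ccl9), against 12.6% and 10.9% of all genes. Of the 25 that fell, 14 were higher in MLLT10 knockout than in DOT1L knockout and 2 lower (Itm2b and Wnk1), and 9 did not differ by test. The 50 genes were chosen with the same MLLT10 libraries, so these counts are not independent of that choice.

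**Figure D4:**
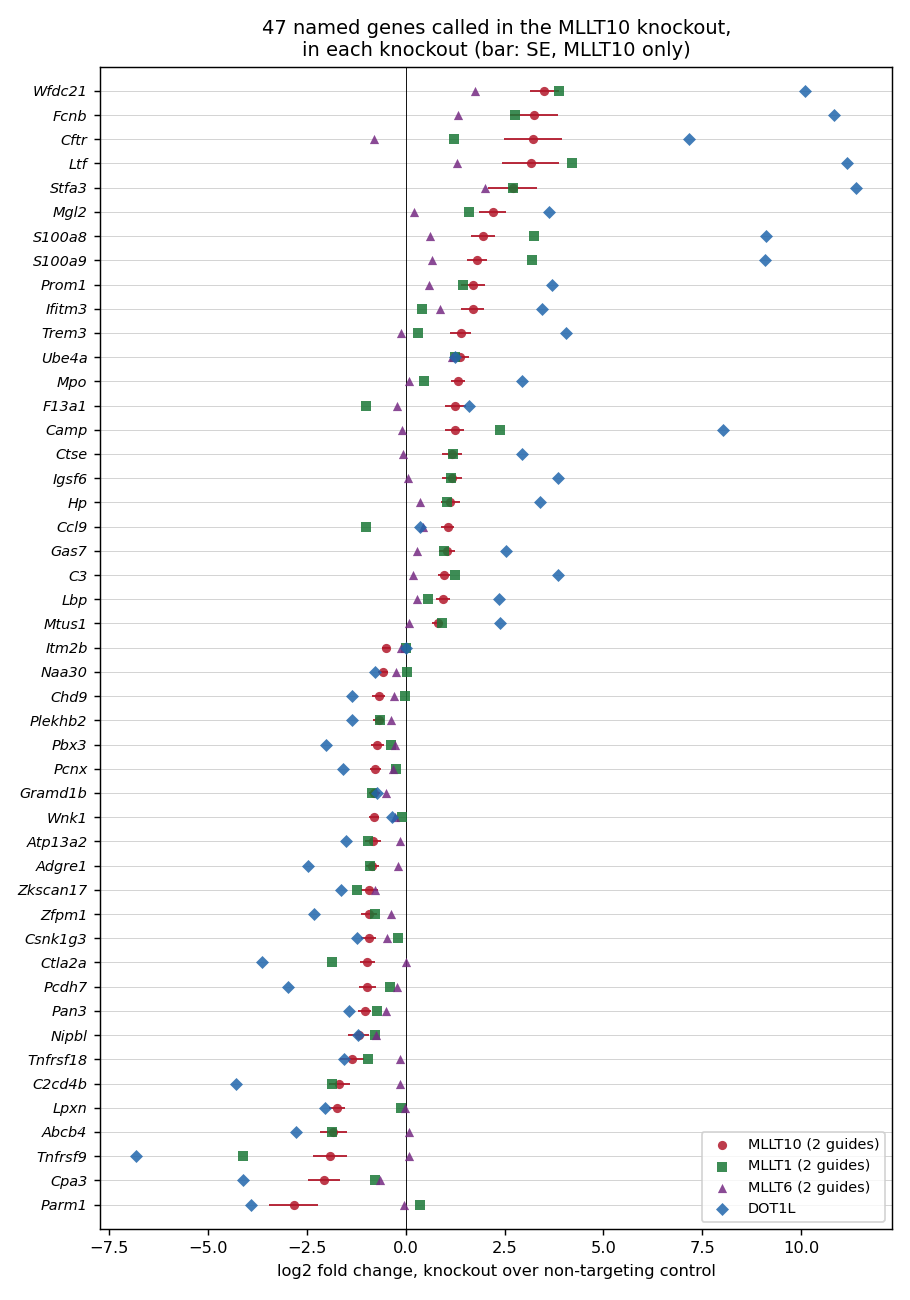
Log2 fold change over the same 3 control libraries of 47 named genes called in the MLLT10 knockout, in the MLLT10, MLLT1, MLLT6 and DOT1L knockouts; bars are the SE of the MLLT10 value. Cftr rests on 3 control counts, and its fitted values are not bounds.

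Among the 25 rises the log2 difference between MLLT10 and DOT1L knockouts ran from -8.70 for Stfa3 to 0.71 for Ccl9. S100a8 averaged 273 ± 73.2 CPM in MLLT10 knockout and 38700 ± 2570 CPM in DOT1L knockout (SD, n = 6 and 3), a log2 difference of -7.15 ± 0.29. Camp averaged 148 ± 26.2 CPM in MLLT10 knockout and 16200 ± 2380 CPM in DOT1L knockout (-6.78 ± 0.23), and Mpo averaged 854 ± 107 CPM in MLLT10 knockout and 2610 ± 136 CPM in DOT1L knockout (-1.61 ± 0.15). By contrast, 3 of the rises (F13a1, Ube4a and Gm26917) did not differ by test between the knockouts. F13a1 averaged 73.3 ± 18.8 CPM in MLLT10 knockout and 93.0 ± 7.1 CPM in DOT1L knockout, with a 95% interval of -0.81 to 0.10 for the log2 difference. Lpxn was among the 9 falls of this kind. It averaged 22.9 ± 5.37 CPM in MLLT10 knockout and 19 ± 7.49 CPM in DOT1L knockout, with a 95% interval of -0.14 to 0.75 (edgeR adjusted p = 0.385). For Pan3 the interval was 0.06 to 0.73 and for Nipbl -0.53 to 0.59.

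Between MLLT10 and MLLT1 knockouts 283 genes (2.68%) differed, 158 higher in MLLT10 knockout (1.49%) and 125 lower (1.18%). Of the 25 rises of MLLT10 knockout, 16 did not differ by test between these knockouts, 6 were higher in MLLT10 knockout and 3 lower. Camp, S100a8 and S100a9 were lower in it than in MLLT1 knockout. S100a8 averaged 273 ± 73.2 CPM in MLLT10 knockout and 669 ± 80.5 CPM in MLLT1 knockout (log2 difference -1.29 ± 0.22, edgeR adjusted p = 0.000941). Ccl9, Cftr, F13a1, Ifitm3, Mpo and Trem3 were higher. Mpo averaged 854 ± 107 CPM in MLLT10 knockout and 465 ± 84.5 CPM in MLLT1 knockout (0.87 ± 0.13, edgeR adjusted p = 0.000181), and F13a1 averaged 73.3 ± 18.8 CPM in MLLT10 knockout and 15.4 ± 5.41 CPM in MLLT1 knockout (2.27 ± 0.21, edgeR adjusted p = 6.16e-07).

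Of the 25 falls, 14 did not differ by test between MLLT10 and MLLT1 knockouts, 9 were lower in MLLT10 knockout and 2 higher. Lpxn was much lower in MLLT10 knockout, at 22.9 ± 5.37 CPM, than in MLLT1 knockout, at 70.8 ± 8.04 CPM (-1.63 ± 0.17, edgeR adjusted p = 4.52e-06). Chd9, Cpa3, Csnk1g3, Itm2b, Naa30, Parm1, Pcnx and Wnk1 were also lower with MLLT10. Tnfrsf9 and Ctla2a were higher with MLLT10 than with MLLT1. Tnfrsf9 averaged 319 ± 140 CPM in MLLT10 knockout and 69.5 ± 42.4 CPM in MLLT1 knockout, with a log2 difference of 2.19 ± 0.39 (SE; edgeR adjusted p = 0.0014).

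Between MLLT10 and MLLT6 knockouts 81 genes (0.766%) differed, 44 higher in MLLT10 knockout (0.416%) and 37 lower (0.35%). Of the 25 rises, 21 were higher in MLLT10 knockout and none lower, and of the 25 falls, 13 were lower and none higher. These genes were chosen with the same MLLT10 libraries, which favours such differences. These counts, and those against MLLT1 knockout, are therefore not independent of that choice. None of these genes was called between MLLT6 knockout and the control. Mpo averaged 854 ± 107 CPM in MLLT10 knockout and 362 ± 46.2 CPM in MLLT6 knockout (1.24 ± 0.13), and Lpxn averaged 22.9 ± 5.37 CPM in MLLT10 knockout and 74.5 ± 8.95 CPM in MLLT6 knockout (-1.71 ± 0.17; edgeR adjusted p = 9.57e-06 for each). Ube4a was at 12.5 ± 2.28 CPM in MLLT10 knockout and 10.9 ± 1.63 CPM in MLLT6 knockout and did not differ by test (95% interval -0.15 to 0.52).

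**Figure D5:**
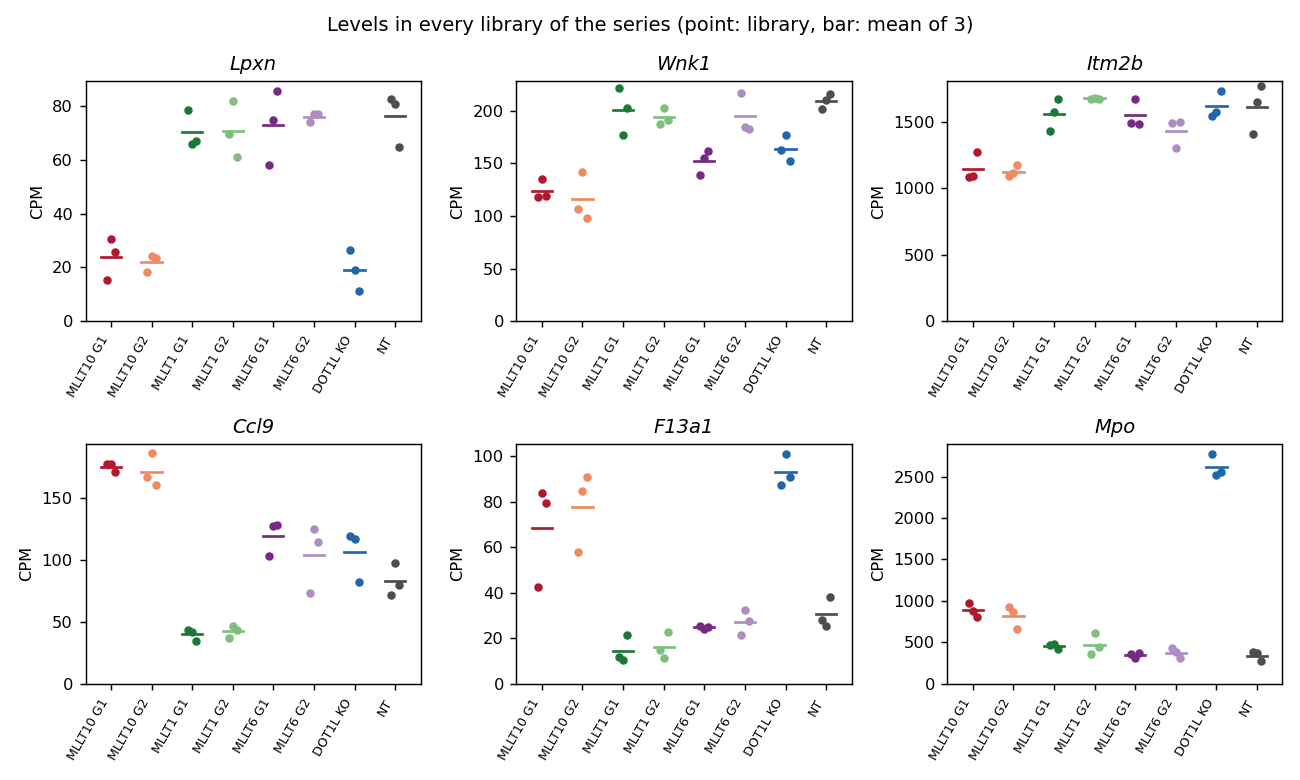
TMM-normalised CPM of Lpxn, Wnk1, Itm2b, Ccl9, F13a1 and Mpo in all 24 libraries (points), with bars for the mean of each 3. Lpxn lies low in the MLLT10 and DOT1L groups, whereas Ccl9 is highest and Wnk1 and Itm2b are lowest in the MLLT10 groups.

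Ccl9, Wnk1 and Itm2b were the only genes that differed by test, in the same direction, from the control and from each of the 3 other knockouts. Ccl9 averaged 173 ± 9.34 CPM in MLLT10 knockout (SD, n = 6), 41.2 ± 4.34 CPM in MLLT1 knockout, 112 ± 21.2 CPM in MLLT6 knockout, 106 ± 20.7 CPM in DOT1L knockout and 82.9 ± 13.2 CPM in the control. Against MLLT1, MLLT6 and DOT1L knockouts the log2 differences were 2.07 ± 0.13, 0.63 ± 0.13 and 0.71 ± 0.16, with edgeR adjusted p of 1.52e-09, 0.0158 and 0.00209. No library of another group reached the lowest MLLT10 library, 160 CPM.

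Wnk1 averaged 120 ± 16.5 CPM in MLLT10 knockout, 197 ± 15.5 CPM in MLLT1 knockout, 173 ± 27.5 CPM in MLLT6 knockout, 164 ± 12.4 CPM in DOT1L knockout and 209 ± 7.11 CPM in the control. The log2 differences from MLLT1, MLLT6 and DOT1L knockouts were -0.72 ± 0.10, -0.52 ± 0.10 and -0.45 ± 0.12 (edgeR adjusted p = 0.000114, 0.00961 and 0.00754). Itm2b averaged 1130 ± 73.4 CPM in MLLT10 knockout, 1610 ± 98.5 CPM in MLLT1 knockout, 1490 ± 119 CPM in MLLT6 knockout, 1610 ± 99 CPM in DOT1L knockout and 1610 ± 185 CPM in the control. Its call against the control was lost without control replicate 2 (edgeR adjusted p = 0.136) or 3 (0.316), while that of Wnk1 held without either (0.0151 and 0.0193). Reep3, which shapes the endoplasmic reticulum, was lower in MLLT10 knockout than in each other knockout but was not called against the control (-0.39 ± 0.12, edgeR adjusted p = 0.232).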

How the data were processed

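RNA-seq counts were deposited by the authors as raw reads per gene identifier for 24 libraries. Per the submitters' processing notes, bcl2fastq, HISAT2, HTSeq, DESeq2 and mm10 were used; the annotation release, strand setting and versions were not in the sources used here. Overlapping genes could therefore share reads. Of 43629 identifiers, 42548 were given a symbol and coordinates from GENCODE M21 (GRCm38). Total counts ran from 2403044 to 7415397 per library, and no replicate pair agreed within sampling noise.

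The counts were fitted in edgeR 4.0.16 (R 4.3.3) with TMM normalisation, filterByExpr by group (10578 genes kept) and the quasi-likelihood test over all 8 groups of 3 libraries, with contrasts of group means and Benjamini-Hochberg adjustment over all genes. SE is the log2 fold change divided by the square root of F and is approximate. Alternatives were no filter, DESeq2 size factors, DESeq2 1.42.0, a replicate block, the compared groups alone, each library left out, 2 libraries of other knockouts left out and, chosen after seeing the data, thinning to the smallest library. Same-numbered libraries of guide 1 and the control deviated together (correlations 0.301, 0.252 and 0.334), as did those of guide 1 and guide 2 (0.529, 0.221 and 0.333). For guide 2 and the control the correlations were 0.15, 0.0958 and 0.197. The main fit did not use the replicate numbers, so its calls ignore this pairing. The replicate block used them for all libraries, guide 2 included. Counts were simulated for the 10578 genes, and 10429 of them passed the filter again and were tested. At each fold 50 genes were changed, all with a mean of at least 10 CPM over all libraries. Between MLLT10 and control libraries, 14% of 1.5-fold, 76% of 2-fold and 100% of 4-fold changes were called. Of 10229 unchanged genes, 10 were called. No replicate effect was simulated, and the rates do not cover genes at lower levels.

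Members and gene lists were chosen with earlier results of these data known. Genes named were the DOT1L complex, the called genes and up to 4 genes per list with the smallest p, without clone names except where a count needed them; Meis1, Spi1 and Reep3 were chosen after their values were seen. Results for 1 called gene and 1 marker are not reported here.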

Additional observations from a re-analysis of the deposited data

How the results depend on the processing

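The rises and falls of MLLT10 knockout numbered 25 and 25 in edgeR. They numbered 122 and 70 with no filter on low counts, 48 and 57 in DESeq2, and 12 and 4 where each guide and the mean had to pass. With the compared groups alone there were 17 rises and 11 falls. Without the 2 libraries of other knockouts that stood apart there were 35 rises and 44 falls. Guide 1 called 18 genes, against 112 with no filter, 46 in DESeq2, 9 with the compared groups alone and 29 without those 2 libraries. Guide 2 called 32 genes, against 160, 80, 13 and 50 in the same order. Between the guides 0 genes were called in edgeR, 16 with no filter and 0 in DESeq2. Leaving out 1 library at a time gave 8 to 28 rises, 6 to 28 falls, 5 to 20 genes for guide 1, 5 to 50 for guide 2 and 0 to 1 between the guides. The cause of these shifts was not tested.

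With the replicate number as a block, 38 rises and 41 falls were called, 30 genes for guide 1 and 69 for guide 2, and all 50 called genes kept their call. DESeq2 kept 49 of the 50, and thinning to 2403044 counts per library kept 40. Of the 50 genes, 35 lost their call without control replicate 2, 35 without control replicate 3 and 16 without control replicate 1, 26 lost it with the compared groups alone, and none changed direction under any of these alternatives. The control is 1 guide in 3 libraries of at most 3127008 counts, which limits what can be called among weakly expressed genes and among changes under 2-fold.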

Other observations

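Genes that fell with MLLT10 knockout were long. Their median span in GENCODE was 55.1 kb, against 10.5 kb for the genes that rose and 21.6 kb for the 10541 tested genes with a span. Of the 25 genes that fell, 10 (40%) spanned at least 100 kb, as did 5 of the 25 that rose (20%) and 10.8% of tested genes. Cftr, Prom1, Gas7 and Mtus1 were among the long genes that rose, and Wnk1, Pan3, Nipbl and Pcdh7 among those that fell. These features were chosen after the values were seen, and a part of gene length in the result was not tested.

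Chromosome 11 held 5 of the 25 genes that rose and 8.62% of tested genes. Chromosome 5 held 5 of the 25 that fell and 6.23% of tested genes. The TATA box match was in 4 of 18 promoters of genes that rose (C3, Ccl9, S100a8 and S100a9) and in 3 of 22 promoters of genes that fell (Cpa3 and Ctla2a), against 6.7% of promoters of tested genes.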
